A study of Mus musculus with 4 samples.

Results

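*Fas*, *Fadd*, *Casp8*, *Cflar*, *Casp9*, *Apaf1*, *Trp53*, *Mdm2* and *Cdkn1a* are 9 genes of the Fas death receptor, the apoptotic caspases and the p53 response, chosen by symbol from the 55401 genes counted in splenic B cells with and without NSD1. RNA was sequenced from splenic B cells of C57BL/6J mice, sorted as B220+. The 2 NSD1B WT libraries came from Mb1-Cre+ NSD1+/+ mice and the 2 NSD1B KO libraries from Mb1-Cre+ NSD1fl/fl mice, in which the Cre removes floxed coding exons of *Nsd1* in the B cell lineage. Both genotypes therefore carry the Mb1-Cre transgene, a Cre driven by the *Cd79a* locus, and no group without Cre was sequenced. The study's Methods describe young adult mice of both sexes with littermates as controls, and the labels give neither the sex nor the number of mice behind a library. No treatment or immunization is stated for these libraries, and the question was how expression differed when NSD1, a methyltransferase of histone H3 lysine 36, was lost.

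Apoptosis can be started from outside or from inside a cell. Outside, Fas ligand binds Fas, the adaptor FADD joins the receptor and gathers caspase-8, and the caspase-8 relative c-FLIP, made from *Cflar*, limits that step. Inside, cytochrome c that leaves mitochondria binds APAF1, and the resulting apoptosome activates caspase-9, which in turn cleaves the executioner caspases. The transcription factor p53 (*Trp53*) acts upstream of the inner route and also halts the cell cycle through p21 (*Cdkn1a*), while MDM2, itself the product of a p53 target, marks p53 for degradation. In the spleen, Fas is best known on activated and germinal centre B cells, which are removed through it when they fail selection.

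The promoter windows of 6 of the 9 genes are shown, those that held a match to a motif searched, whether or not the gene could be tested. Each window holds 300 bases in RefSeq for GRCm38.p6, 250 before and 50 after an annotated start, read 5′ to 3′ on the gene's strand, and windows were matched for all 9 genes. Capitals mark a match, on either strand, to any of the motifs searched. They were the p53 half-site of 10 bases, only a part of a full p53 site, the E-box CACGTG, and GCGCATGCG, the letters of an NRF1 motif. The last 2 motifs were picked after these windows had been read.
Fas, chr19:34290409-34290708, plus strand: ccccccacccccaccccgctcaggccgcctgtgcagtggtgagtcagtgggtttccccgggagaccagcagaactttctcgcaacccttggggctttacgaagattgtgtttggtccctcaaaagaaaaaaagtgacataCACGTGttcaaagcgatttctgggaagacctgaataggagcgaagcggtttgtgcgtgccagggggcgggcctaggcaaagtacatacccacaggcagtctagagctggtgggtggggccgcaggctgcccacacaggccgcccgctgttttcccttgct
Fadd, chr7:144582392-144582691, minus strand: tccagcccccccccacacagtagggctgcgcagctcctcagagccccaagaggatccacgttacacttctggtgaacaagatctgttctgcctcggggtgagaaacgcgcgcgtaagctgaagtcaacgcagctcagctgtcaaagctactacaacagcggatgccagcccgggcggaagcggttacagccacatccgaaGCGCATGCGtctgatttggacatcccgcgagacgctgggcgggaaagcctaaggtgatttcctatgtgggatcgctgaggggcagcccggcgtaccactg
Apaf1, chr10:91082694-91082993, minus strand: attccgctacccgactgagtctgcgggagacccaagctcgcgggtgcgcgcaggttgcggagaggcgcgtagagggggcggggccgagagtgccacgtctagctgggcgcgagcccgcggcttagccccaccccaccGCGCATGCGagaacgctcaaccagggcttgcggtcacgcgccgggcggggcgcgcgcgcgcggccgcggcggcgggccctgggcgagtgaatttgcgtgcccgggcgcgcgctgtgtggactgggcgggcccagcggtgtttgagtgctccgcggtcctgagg
Trp53, chr11:69580109-69580408, plus strand: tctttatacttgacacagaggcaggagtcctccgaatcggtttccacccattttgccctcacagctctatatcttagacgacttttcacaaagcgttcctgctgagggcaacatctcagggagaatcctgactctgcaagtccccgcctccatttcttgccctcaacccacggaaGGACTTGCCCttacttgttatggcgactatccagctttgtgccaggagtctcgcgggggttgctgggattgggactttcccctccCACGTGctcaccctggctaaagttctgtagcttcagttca
Mdm2, chr10:117710709-117711008, minus strand: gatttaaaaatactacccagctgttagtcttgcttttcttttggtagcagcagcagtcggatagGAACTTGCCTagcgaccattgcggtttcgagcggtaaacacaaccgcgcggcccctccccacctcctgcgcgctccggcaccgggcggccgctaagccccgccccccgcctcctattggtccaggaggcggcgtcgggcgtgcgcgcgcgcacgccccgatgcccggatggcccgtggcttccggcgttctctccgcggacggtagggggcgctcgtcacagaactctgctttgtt
Cdkn1a (upstream start), chr17:29090729-29091028, plus strand: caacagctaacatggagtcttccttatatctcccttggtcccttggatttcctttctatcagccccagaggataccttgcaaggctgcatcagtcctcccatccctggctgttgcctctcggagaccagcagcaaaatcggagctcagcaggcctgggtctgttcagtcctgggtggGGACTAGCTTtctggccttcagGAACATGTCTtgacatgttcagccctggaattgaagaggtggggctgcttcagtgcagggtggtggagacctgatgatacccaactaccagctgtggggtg

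The upstream *Cdkn1a* window carried 2 matches to the p53 half-site, GGACTAGCTT and GAACATGTCT, and the windows of *Mdm2* and *Trp53* carried 1 each. The other *Cdkn1a* window, from 29093519 to 29093818, held no match to any motif. A half-site match was present in 8.36% of 32841 promoter windows of this length. *Trp53* and *Fas* each held an E-box, found in 7.15% of windows. The NRF1 letters stood in the windows of *Fadd* and *Apaf1* and in 1.75% of all windows. A match here is only a run of letters, and none of the 3 motifs overlapped another in these windows.

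Between 6769118 and 7566834 counts per library fell on genes, and these totals set the depth. Reads assigned to no counted feature made up 44.3% to 44.6% of a library, and neither library of a genotype stood apart from the other. *Nsd1*, the targeted gene, had 497 and 480 counts in NSD1B WT and 284 and 280 in NSD1B KO (log2 fold change -0.74, standard error 0.11, adjusted p = 8.08e-08, edgeR). The 8 B cell markers, among them *Cd79a*, *Cd79b*, *Ms4a1*, *Ptprc*, *Pax5*, *Cd22* and *Cr2*, were counted in all 4 libraries, with a summed level of 12620 to 12850 CPM (the counts-per-million unit, over counts on genes, scaled by the TMM method of edgeR) in NSD1B WT and 11110 to 12100 in NSD1B KO. Most of that sum was *Cd79b* (6825 ± 65.3 and 8159 ± 532 CPM, not past the threshold used below), and 6 of the 8 were lower in NSD1B KO and none higher. This was 75% called, against 78.2% of all genes tested, which were 37.1% higher and 41.1% lower. Among the 6, *Pax5* was 9.76-fold, *Cr2* 12.9-fold and *Cd79a* 2.52-fold lower. *Xist*, transcribed from the inactive X chromosome, had 47 and 62 counts in NSD1B WT and 1 and 2 in NSD1B KO, while Y-linked genes went both ways, with 624 and 641 counts in NSD1B WT and 914 and 875 in NSD1B KO for *Ddx3y*, 89 and 77 and then 365 and 300 for *Kdm5d*, and 1014 and 988 and then 169 and 184 for *Eif2s3y*. Markers of other cells also differed in sum, and the part of either in the results was not tested. The 6 erythroid markers summed to 35.6 to 39.6 CPM in NSD1B WT and 1690 to 1944 in NSD1B KO. The 7 myeloid markers, with *S100a9* at 0 in NSD1B WT and *S100a8* at 0 in NSD1B KO, summed to 4604 to 4707 and 5798 to 6146 CPM. Most of this was *Lyz2*, 1.27-fold higher, and the list went both ways, with 5 higher and 2 lower, *Itgam* falling from 76.1 ± 11.3 to 43.8 ± 8.28 CPM. All 7 were thus past the threshold, against 78.2% of all genes tested. The 10 T cell markers, *Cd4* and *Cd8a* at 0 throughout, summed to 73.3 to 76.2 and 92.3 to 98.0 CPM, with 3 higher and 2 lower. This was 83.3% of the 6 tested, against 78.2% of all genes tested. The 5 natural killer markers, *Ncr1* and *Gzma* at 0 throughout, summed to 55.8 to 59.6 and 88.5 CPM. Most of this was *Nkg7* (54.5 ± 3.23 and 79.8 ± 0.165 CPM). *Klrb1c* went from 26 and 21 counts to 0, and *Klrd1* from 0 to 62 and 59. The 5 plasmacytoid dendritic markers, *Siglech* and *Klk1* at 0 throughout, summed to 141 and 212 to 219 CPM. Nearly all of this was *Bst2* (65.1 and 106 CPM) and *Tcf4* (75.2 and 109 CPM), while *Ccr9* went from 3 and 5 counts to 0.

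The 9 genes did not move as a block. *Fas*, *Fadd*, *Trp53* and *Mdm2* were lower in NSD1B KO, *Apaf1* and *Cflar* were higher, *Casp8* stayed inside the fold change limit, and *Casp9* and *Cdkn1a* were too rarely counted to be tested. All 9 are listed in the files, 8 had at least 1 count in any library and 7 passed edgeR's filter on low counts. *Fas* and *Fadd* passed it only through the NSD1B WT libraries. Like every gene named here with 0 counts in a whole genotype, they had to differ in order to be tested, so their p is no support for a difference. Such genes were common both ways. Of the 11657 genes tested, 1313 had 0 counts in both NSD1B KO libraries and 890 in both NSD1B WT libraries. A gene was called past the threshold at an adjusted p below 0.05 in the quasi-likelihood test of edgeR, adjusted over all genes by Benjamini-Hochberg, and a fold change above 1.2. By this rule 6 of the 7 tested genes were past it, 2 higher and 4 lower. The background was high, since 78.2% of the 11657 genes tested were past it (37.1% higher and 41.1% lower), so the number of members called does not set them apart. The genotypes did not overlap in any of the 7, as in 88.1% of all genes tested (41.8% with NSD1B KO higher and 46.2% with it lower). With the threshold raised to adjusted p 1e-05 and a log2 fold change of 0.5 in either direction, the same 6 were called, against 57.2% of all genes tested. It is not given whether replicate libraries were made from separate mice, so p measures only the spread between these libraries, which may be technical. In a bulk sample, fewer cells with a transcript and less RNA per cell cannot be told apart.

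**Figure D1:**
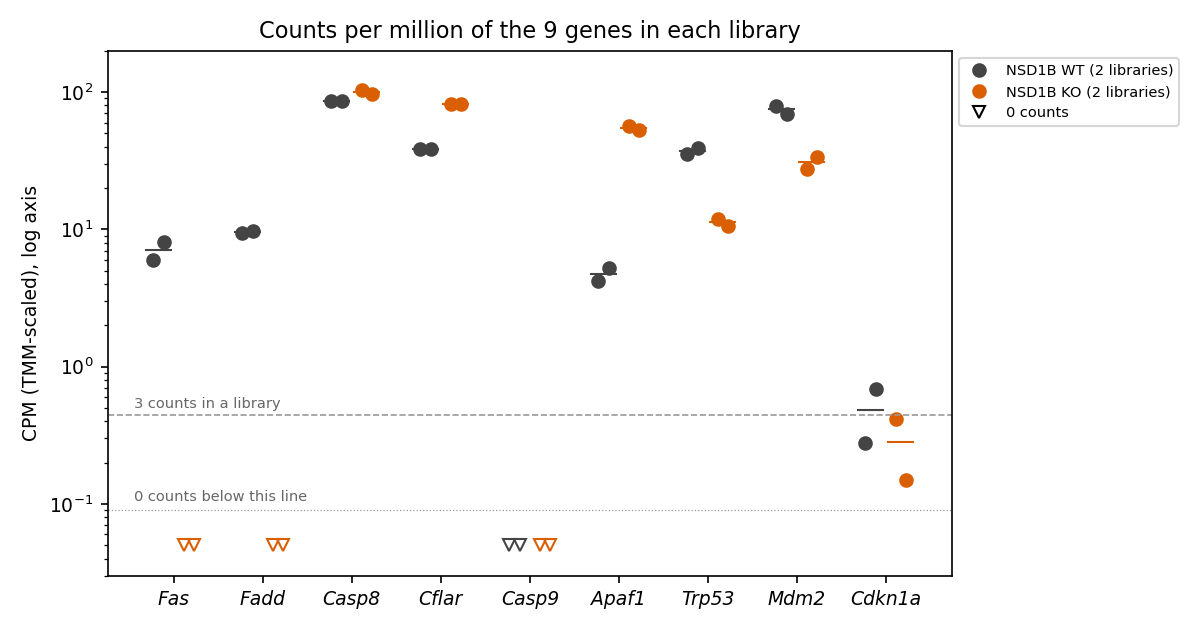
CPM, TMM-scaled, on a log axis, of the 9 genes in the 2 NSD1B WT (grey) and 2 NSD1B KO (orange) libraries, with bars at the group means and open triangles for 0 counts. *Fas* and *Fadd* were at 0 in both NSD1B KO libraries and *Casp9* in all 4, *Apaf1* rose from 4.70 to 54.8 CPM, and *Cdkn1a* lay around the level of 3 counts in a library.

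*Fas* (ENSMUSG00000024778.13), the death receptor CD95, lies on chromosome 19 (plus strand, 34290666 to 34327772) (mm10, GENCODE M21 annotation). It was counted 43 and 59 times in the NSD1B WT libraries and 0 times in both NSD1B KO libraries. These counts correspond to 7.04 ± 1.45 CPM in NSD1B WT (mean ± SD, n = 2 libraries). No read of the receptor gene was seen without NSD1, where 3 counts over the group would have been 0.216 CPM. Taken against that limit, which covers counting error only, *Fas* was at least 32.8-fold lower in NSD1B KO (adjusted p = 5.44e-12, edgeR). The limit, -5.03 on the log2 scale, became -3.99 without replicate 1 and -4.08 without replicate 2 of NSD1B KO. Such a loss was not rare at this depth. Of the genes tested with 50 to 150 counts over the NSD1B WT libraries, 24.5% had 0 counts in both NSD1B KO libraries.

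*Fadd* (ENSMUSG00000031077.7), the adaptor that links Fas to caspase-8, lies on chromosome 7 (minus strand, 144577318 to 144582463). It had 67 and 71 counts in NSD1B WT and 0 in both NSD1B KO libraries. At 9.54 ± 0.238 CPM in NSD1B WT, it was at least 44.3-fold lower in NSD1B KO (adjusted p = 9.01e-14, edgeR). This limit, -5.47 on the log2 scale, became -4.42 without replicate 1 and -4.51 without replicate 2 of NSD1B KO. *Fadd* thus showed the pattern of *Fas*, with both genes counted in each library of one genotype and in no library of the other. The antisense gene Faddos shares 239 bp, or 6.12%, of the *Fadd* exons, and since the strand setting of the counting is not given, reads of the pair cannot be told apart there.

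The ligand and the other receptors were examined as a list of 8 genes written from their textbook roles. Only *Fas* and *Fasl* could be tested, and both were lower, as were 41.1% of all genes tested (78.2% past the threshold in either direction). *Fasl*, the gene of Fas ligand, had 155 and 166 counts in NSD1B WT and 0 in both NSD1B KO libraries, at least 103-fold lower, and so passed the filter only through NSD1B WT. The TNF and TRAIL receptors *Tnfrsf1a* and *Tnfrsf10b*, the death receptors *Tnfrsf21* and *Tnfrsf25* and the ligands *Tnf* and *Tnfsf10* had 0 counts in all 4 libraries.

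*Fas* also belongs to the markers of germinal centre B cells, a list of 10 genes of which 6 could be tested. The cell division genes *Mki67* and *Top2a* were, as *Fas*, lower with 0 counts in both NSD1B KO libraries. *Bcl6* and *Rgs13* went the opposite way. *Bcl6*, the repressor that germinal centre cells depend on, rose from 4.77 ± 0.021 to 14.6 ± 1.44 CPM (log2 fold change 1.61, standard error 0.26, adjusted p = 3.14e-07, edgeR), and *Rgs13*, at 0 in NSD1B WT, had 163 and 124 counts in NSD1B KO. *Gcsam*, *S1pr2* and *Nuggc* were at 0 in all 4 libraries. The list summed to 42.3 to 49.4 CPM in NSD1B WT and 32.0 to 38.4 in NSD1B KO.

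*Casp8* (ENSMUSG00000026029.14), the initiator caspase of the Fas route, lies on chromosome 1 (plus strand, 58795374 to 58847503). It was counted 619 and 631 times in NSD1B WT and 744 and 651 times in NSD1B KO, or 86.5 ± 0.218 and 100.1 ± 4.69 CPM (mean ± SD, n = 2). Both NSD1B KO libraries were above both NSD1B WT libraries, by little. The log2 fold change was 0.21 (standard error 0.09, 95% interval 0.02 to 0.40, adjusted p = 0.0382, edgeR), a fold change of 1.16 that stayed inside the limit of 1.2. Without replicate 2 of NSD1B KO the log2 fold change was 0.26 and past the threshold (adjusted p = 0.0162), and over all alternatives it lay between 0.13 and 0.26.

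*Cflar* (ENSMUSG00000026031.15) lies upstream of *Casp8* on the same strand, from 58711508 to 58758884. Its counts were 274 and 281 in NSD1B WT and 593 and 548 in NSD1B KO, or 38.4 ± 0.0668 and 81.9 ± 0.673 CPM. The gene of this caspase-8 inhibitor was 2.13-fold higher in NSD1B KO (log2 fold change 1.09, standard error 0.11, adjusted p = 1.24e-12, edgeR). The gap between genotypes was far wider than that between libraries of a genotype. The ratio of *Cflar* to *Casp8* counts within a library does not depend on how libraries are scaled. It was 0.443 and 0.445 in the NSD1B WT libraries and 0.797 and 0.842 in the NSD1B KO libraries. Both NSD1B KO libraries had the higher ratio of inhibitor to caspase. With 2 libraries against 2, an exact permutation test cannot go below p = 0.333, so no test of the ratios was made.

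Of 17 genes of the death-inducing complex, its ubiquitin system and necroptosis, 16 were tested, 4 were higher, 8 were lower and 4 were not past the threshold. The share called, 75%, was near the 78.2% of all genes tested. Their median log2 fold change was -0.14, against -0.10 for all genes tested, with genes at 0 in a genotype set to the limit of their fold change here and in the medians that follow. *Tradd*, the adaptor of TNF receptor 1, had 116 and 105 counts in NSD1B WT and 0 in NSD1B KO, at least 71.0-fold lower, and also passed the filter only through NSD1B WT. *Ripk1*, a kinase that can turn receptor signals to survival or death, fell from 18.3 to 5.31 CPM (log2 fold change -1.78, standard error 0.24, adjusted p = 4.64e-09, edgeR). *Sharpin*, a subunit of the linear ubiquitin ligase, rose from 18.1 to 58.5 CPM (log2 fold change 1.69, standard error 0.14, adjusted p = 2.94e-15, edgeR). The adaptors *Fadd* and *Tradd* were thus at 0 in NSD1B KO, where *Casp8* had 651 and 744 counts. With a trend of exon length and GC content removed, the same list held 7 higher and 6 lower genes.

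**Figure D2:**
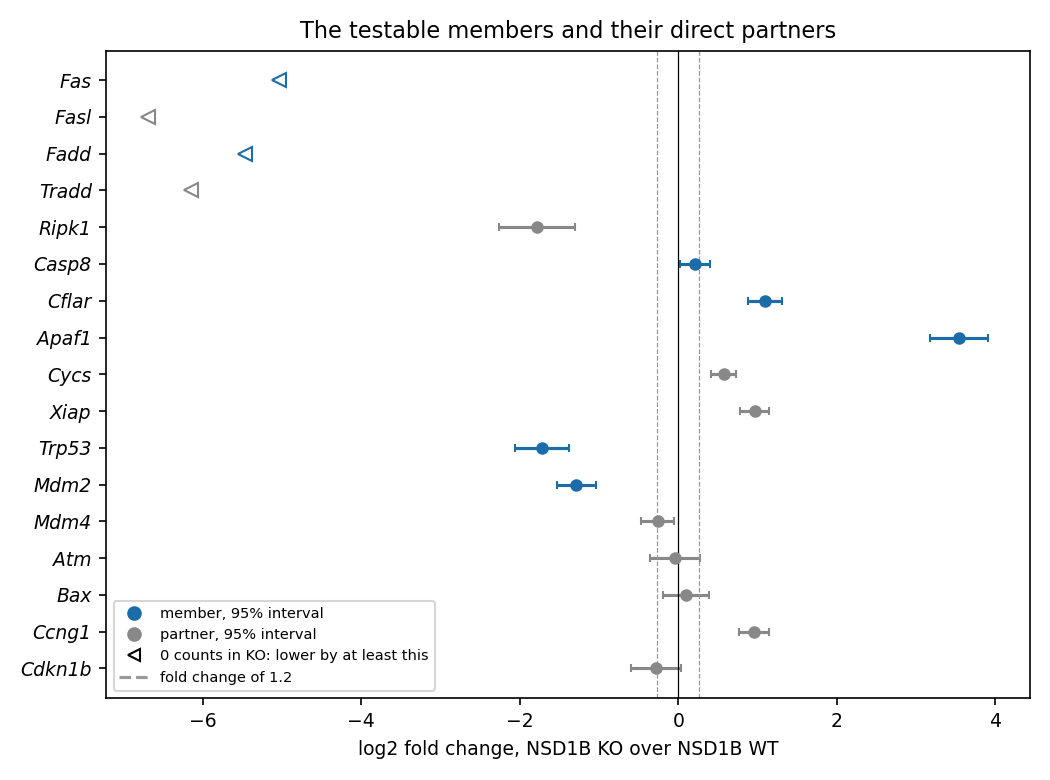
Log2 fold change of NSD1B KO over NSD1B WT on the horizontal axis for the 7 tested members (blue) and tested direct partners with *Tradd* (grey), with 95% intervals, dashed lines at a fold change of 1.2, and open triangles at the lower limit of the decrease for genes with 0 counts in NSD1B KO. *Fas*, *Fasl*, *Fadd* and *Tradd* stood at the left end and *Apaf1*, at 3.54, at the right.

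Of 10 caspases, 6 were tested, of which 4 were higher in NSD1B KO, none was lower, and 2, with *Casp8* among them, were not past the threshold. The share called was 66.7%, against 78.2% of all genes tested. The median log2 fold change was 0.82. *Casp1* and *Casp4*, the inflammatory caspases that lead to pyroptosis, rose from 373 ± 4.36 to 617 ± 52.8 CPM and from 108 ± 4.58 to 204 ± 9.99 CPM (log2 fold changes 0.73 and 0.91, standard errors 0.08 and 0.09, adjusted p = 1.62e-11 and 3.05e-13, edgeR). *Casp6*, which acts with the executioner caspases, rose from 48.9 ± 1.47 to 97.2 ± 7.26 CPM (log2 fold change 0.99, standard error 0.10, adjusted p = 5.20e-12, edgeR). *Casp2*, an initiator linked to the p53 response, had 0 counts in both NSD1B WT libraries and 239 and 199 in NSD1B KO, at least 152-fold higher, and passed the filter only through NSD1B KO. *Casp12* and *Casp14* had 0 counts in all 4 libraries. Of the 7 myeloid markers given above, 5 were higher in NSD1B KO, as *Casp1* and *Casp4* were, and 2 were lower, and their part in this was not tested.

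*Casp9* (ENSMUSG00000028914.13), the initiator caspase of the apoptosome, lies on chromosome 4 (plus strand, 141793612 to 141815976). It had 0 counts in each of the 4 libraries. At these depths a count of 0 allows 3 counts in a library, which is 0.41 to 0.446 CPM, so a level below that was not detectable. Its exons span 5197 bp, of which 94 bp are shared with *Cela2a* and *Ctrc* on the opposite strand.

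*Apaf1* (ENSMUSG00000019979.12), the scaffold that caspase-9 assembles on, lies on chromosome 10 (minus strand, 90989311 to 91082770). The libraries held 30 and 38 counts in NSD1B WT and 406 and 358 in NSD1B KO, or 4.70 ± 0.707 and 54.8 ± 2.27 CPM (mean ± SD, n = 2). Both NSD1B KO libraries lay far above both NSD1B WT libraries. The increase was 11.6-fold (log2 fold change 3.54, standard error 0.18, adjusted p = 1.34e-22, edgeR), the largest change among the tested members with counts in both genotypes. Of the 3590 genes tested within 2-fold of its mean level, 323 had as large a change or a larger one. The value stayed between 3.42 and 3.72 with each library left out in turn.

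Of 14 genes of the apoptosome, the IAP proteins and the execution phase, 13 were tested and all 13 were past the threshold, against 78.2% of all genes tested, 8 higher and 5 lower (37.1% and 41.1% of all genes), with a median log2 fold change of 0.65. *Cycs*, the gene of cytochrome c, rose from 531 ± 33.2 to 790.0 ± 76.2 CPM (log2 fold change 0.57, standard error 0.08, adjusted p = 9.35e-09, edgeR), with the limit that reads can be split between *Cycs* and its processed copies. *Xiap*, an inhibitor of caspases, rose from 78.2 ± 5.69 to 153 ± 1.07 CPM (log2 fold change 0.97, standard error 0.09, adjusted p = 3.15e-13, edgeR). *Aifm1*, a mitochondrial flavoprotein that can carry death signals to the nucleus, rose from 4.50 ± 0.562 to 18.8 ± 0.588 CPM (log2 fold change 2.06, standard error 0.25, adjusted p = 2.52e-10, edgeR). In the other direction, the giant IAP gene *Birc6* fell from 54.8 ± 1.95 to 12.5 ± 2.32 CPM and the caspase substrate *Parp1* from 30.7 ± 1.85 to 11.7 ± 0.764 CPM (log2 fold changes -2.14 and -1.39, standard errors 0.15 and 0.18, adjusted p = 2.46e-17 and 1.03e-09, edgeR). Activators and inhibitors of the caspases were thus found among the higher genes alike.

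*Trp53* (ENSMUSG00000059552.13), the gene of p53, lies on chromosome 11 (plus strand, 69580359 to 69591873). Its counts were 251 and 287 in NSD1B WT and 86 and 71 in NSD1B KO, or 37.2 ± 2.92 and 11.3 ± 0.988 CPM (mean ± SD, n = 2). *Trp53* was 3.30-fold lower in NSD1B KO (log2 fold change -1.72, standard error 0.17, adjusted p = 9.17e-13, edgeR). Both NSD1B KO libraries lay far below both NSD1B WT libraries. Over all alternatives the value stayed between -1.82 and -1.40, the smallest decrease being with the trend of exon length and GC content removed. Of the 3708 genes tested within 2-fold of its mean level, 1148 had as large a change.

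*Mdm2* (ENSMUSG00000020184.15), the ubiquitin ligase of p53, lies on chromosome 10 (minus strand, 117688875 to 117710758). Its counts were 569 and 510 in NSD1B WT and 199 and 227 in NSD1B KO, or 74.7 ± 6.97 and 30.7 ± 4.31 CPM. The decrease was 2.44-fold (log2 fold change -1.28, standard error 0.12, adjusted p = 1.84e-13, edgeR) and the libraries of the genotypes did not overlap. *Mdm4*, the paralog that binds p53 beside MDM2, had 520 and 578 counts in NSD1B WT and 446 and 436 in NSD1B KO, and stayed inside the fold limit (log2 fold change -0.26, standard error 0.10, adjusted p = 0.0195, edgeR).

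The ratio of *Mdm2* to *Trp53* counts was 2.27 and 1.78 in the NSD1B WT libraries and 2.31 and 3.20 in the NSD1B KO libraries. The lower NSD1B KO value lay close to the higher NSD1B WT value, so ligase and substrate fell side by side with no clear shift in their ratio. The ratio of *Mdm2* to *Mdm4* counts was 1.09 and 0.882 in NSD1B WT and 0.446 and 0.521 in NSD1B KO. Here both NSD1B KO libraries stood well below both NSD1B WT libraries.

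**Figure D3:**
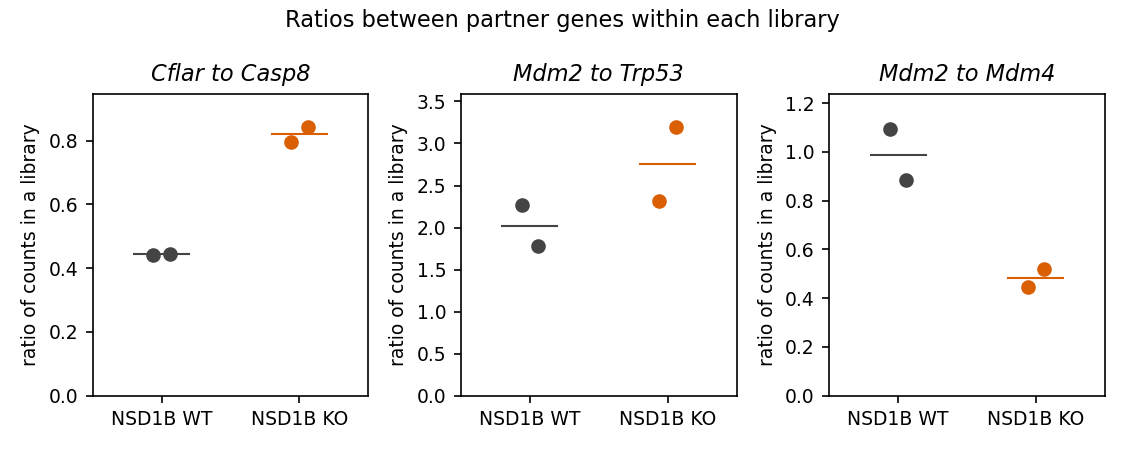
Ratio of counts between partner genes within each library for *Cflar* to *Casp8*, *Mdm2* to *Trp53* and *Mdm2* to *Mdm4*, with points for the 2 NSD1B WT (grey) and 2 NSD1B KO (orange) libraries and bars at the group means. The *Cflar* to *Casp8* ratio went from a mean of 0.444 to 0.819 and that of *Mdm2* to *Mdm4* from 0.988 to 0.483, while the *Mdm2* to *Trp53* points of the genotypes nearly met.

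Among 23 regulators of p53, 18 were tested, of which 6 were higher, 8 were lower and 4 were not past the threshold (77.8% called, against 78.2% of all genes tested), with a median log2 fold change of -0.22. *Trp53bp1*, the gene of the break repair protein 53BP1, fell from 36.4 ± 3.62 to 4.02 ± 0.215 CPM (log2 fold change -3.17, standard error 0.21, adjusted p = 1.62e-18, edgeR). *Atr*, the kinase that answers stalled replication, fell from 14.9 ± 2.30 to 2.22 ± 0.199 CPM (log2 fold change -2.74, standard error 0.31, adjusted p = 3.26e-11, edgeR). *Cop1*, a ubiquitin ligase that also acts on p53, rose from 21.9 ± 1.02 to 68.8 ± 9.83 CPM (log2 fold change 1.65, standard error 0.13, adjusted p = 5.90e-16, edgeR). *Atm*, the kinase that activates p53 at DNA breaks, had 192 and 194 counts in NSD1B WT and 162 and 199 in NSD1B KO, and its values overlapped (log2 fold change -0.04, 95% interval -0.36 to 0.28, adjusted p = 0.828, edgeR). The checkpoint kinases downstream of them, chosen here after their values were seen, went apart. *Chek1* had 76 and 88 counts in NSD1B WT and 0 in NSD1B KO, whereas *Chek2* had 3 in each NSD1B WT library and 103 and 94 in NSD1B KO.

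*Cdkn1a* (ENSMUSG00000023067.14), the gene of the cell cycle inhibitor p21, lies on chromosome 17 (plus strand, 29090976 to 29100727). It was counted 2 and 5 times in NSD1B WT and 3 and 1 times in NSD1B KO. At this depth no difference was detectable, since the ratio of NSD1B KO to NSD1B WT was 0.593 with a 95% exact counting interval of 0.127 to 2.33. Its log2 value of -0.75 became 0.06 without replicate 2 of NSD1B WT. The p53 half-site matches of its upstream window, shown above, thus stood in a gene close to the limit of detection in both genotypes. The unannotated transcript AC167363.2 on the opposite strand shares 273 bp, or 7.68%, of its exons.

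Other CDK inhibitors were counted more often. Of 7, only *Cdkn1b*, *Cdkn2c* and *Cdkn2d* were tested, of which the last 2 were past the threshold (66.7%, against 78.2% of all genes tested), and *Cdkn1c*, *Cdkn2a* and *Cdkn2b* had 0 counts in all 4 libraries. *Cdkn1b*, the gene of p27, had 196 and 200 counts in NSD1B WT and 160 and 155 in NSD1B KO (log2 fold change -0.28, 95% interval -0.59 to 0.04, adjusted p = 0.102, edgeR). *Cdkn2c*, the gene of p18, rose from 6.72 ± 1.58 to 31.7 ± 0.929 CPM (log2 fold change 2.24, standard error 0.20, adjusted p = 3.82e-14, edgeR), and *Cdkn2d*, that of p19, fell from 55.5 ± 3.31 to 32.4 ± 1.41 CPM (log2 fold change -0.78, standard error 0.12, adjusted p = 1.83e-07, edgeR).

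Of 34 target genes of p53, 21 were tested and 13 were too low. Of these 21, 11 were higher, 8 were lower and 2 were not past the threshold. This is 90.5% called, against 78.2% of all genes tested, which were themselves split into 37.1% higher and 41.1% lower. Their median log2 fold change was 0.64. *Aen*, an apoptotic nuclease, had 5 and 6 counts in NSD1B WT and 314 and 328 in NSD1B KO (log2 fold change 5.89, standard error 0.27, adjusted p = 1.41e-24, edgeR). Below the filter's minimum count of 10 in both NSD1B WT libraries, *Aen* passed it only through NSD1B KO. Its p is thus no support for a difference. *Psrc1*, a spindle protein, was at 0 in NSD1B WT and had 184 and 137 counts in NSD1B KO, at least 111-fold higher, and passed the filter only through NSD1B KO. *Ccng1*, a cyclin, had 469 and 468 counts in NSD1B WT and 919 and 828 in NSD1B KO (log2 fold change 0.95, standard error 0.10, adjusted p = 1.29e-12, edgeR). *Pmaip1*, the gene of the death protein NOXA, went the other way, with 158 and 169 counts in NSD1B WT and 19 and 9 in NSD1B KO (log2 fold change -3.48, standard error 0.28, adjusted p = 1.97e-15, edgeR). With 9 counts in replicate 2 of NSD1B KO, it passed the filter only through NSD1B WT, so its p is no support either. *Bax*, the pore former of the mitochondrial membrane, had 264 and 199 counts in NSD1B WT and 238 in both NSD1B KO libraries (log2 fold change 0.09, 95% interval -0.20 to 0.39, adjusted p = 0.558, edgeR), and *Bbc3*, the gene of PUMA, had 5 and 0 counts in NSD1B WT and 0 in NSD1B KO.

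**Figure D4:**
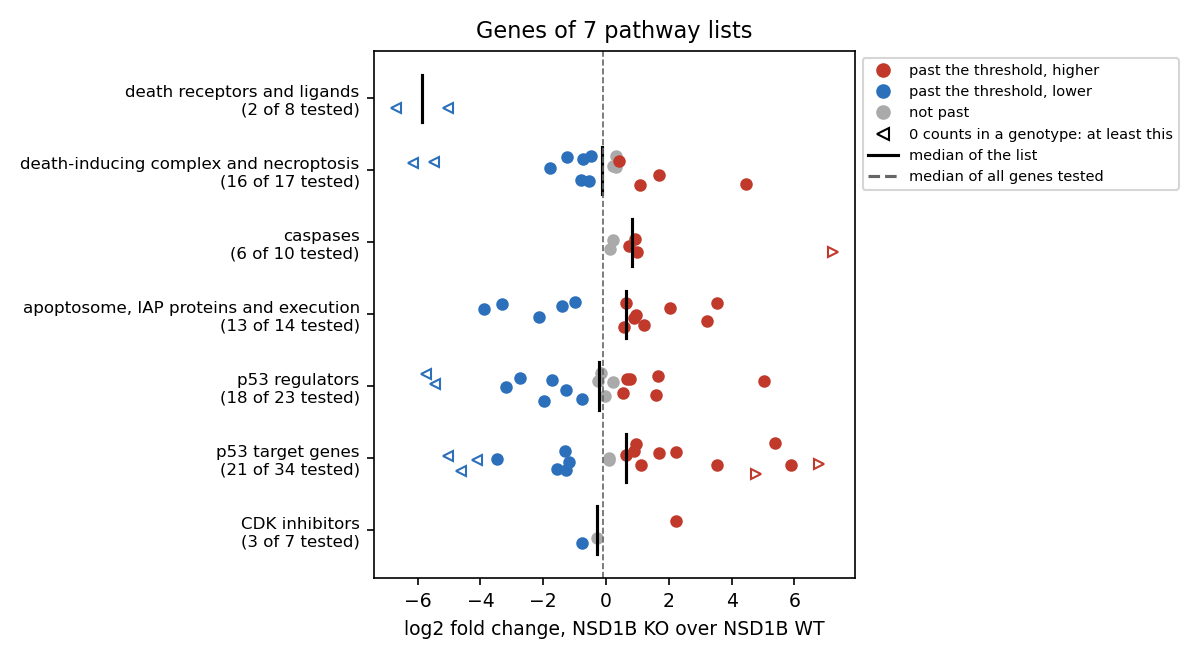
Log2 fold change of NSD1B KO over NSD1B WT on the horizontal axis for the tested genes of the 7 pathway lists, coloured by call, with open triangles at the lower limit of the change for genes at 0 in a genotype, black bars at list medians and a dashed line at the median of all genes tested, -0.10. The caspases lie at or right of 0, while p53 regulators and p53 targets spread to both sides.

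Levels can be compared between genes only per length of exon. Length here merges the exons of all annotated transcripts, 12.67 kb for *Cflar* and 2.062 kb for *Fas*, and the order depends on it. In NSD1B WT the order, in CPM per kilobase of exon, was *Casp8* (29.9 ± 0.0753), *Mdm2* (14.7 ± 1.37), *Trp53* (9.19 ± 0.723), *Fas* (3.42 ± 0.704), *Cflar* (3.03 ± 0.00528), *Fadd* (2.45 ± 0.0609), *Apaf1* (0.52 ± 0.0783), *Cdkn1a* (0.136 ± 0.0804) and *Casp9* at 0. *Fas* and *Cflar*, neighbours in this order, were not apart, as the 2 *Fas* values of 2.92 and 3.91 lay on either side of the *Cflar* level. In NSD1B KO *Casp8* again led (34.6 ± 1.62), followed by *Cflar* (6.47 ± 0.0531), *Apaf1* (6.07 ± 0.251), *Mdm2* (6.04 ± 0.847), *Trp53* (2.78 ± 0.244) and *Cdkn1a* (0.0796 ± 0.0534), with *Fas*, *Fadd* and *Casp9* at 0. Both *Cflar* libraries (6.50 and 6.43) lay above both *Apaf1* libraries (6.25 and 5.89), but *Mdm2* could not be placed, since its libraries, at 5.44 and 6.64, enclosed those of both. *Apaf1* thus went from the lowest level per kilobase among the 7 tested members to one just below that of *Cflar*.

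The genes most like *Fas*, *Trp53* and *Cdkn1a* over the 4 libraries were taken as those with the smallest root mean square difference in log2 CPM. For *Fas* these were *Mtmr11* and the antisense gene Fbxl12os, each with 43, 59, 0 and 0 counts and so a difference of 0, followed by the long non-coding RNA 1810044D09Rik at 0.0119. For *Trp53* they were *Cpne3* (0.0458), *Mbtps1* (0.0889) and *Ythdf2* (0.101), each lower in NSD1B KO. No tested gene was close to *Cdkn1a*, for which the nearest, the pseudogene Gm10913, differed by 0.996.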

How the data were processed

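RNA of B220+ splenic B cells was measured in 2 NSD1B WT and 2 NSD1B KO libraries, and genotypes were taken from the labels. Each file deposited by the authors holds raw whole-number counts for the genes of 1 library. Their methods describe paired-end reads mapped to mm10 with Bowtie2 and FPKM values made with Cufflinks, which are not used here. The program used for counting, its handling of strand and its annotation were not given in the sources used here. Reads assigned to no counted feature (44.3% to 44.6%), ambiguous reads and multiply placed reads stayed out of library sizes.

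Counts were scaled by TMM, genes kept by filterByExpr (minimum count 10, minimum total 15) and tested by the quasi-likelihood test of edgeR 4.0.16 in R 4.3.3 over 11657 genes, with p adjusted by Benjamini-Hochberg. Past the threshold means an adjusted p below 0.05, which is how the p of the Methods was taken, and a fold change above 1.2. The procedure was tested on simulated data. Intervals of 95% come from the standard error of that test. A gene at 0 in a genotype was set to 3 counts over the group for a limit of its fold change. Exon lengths and positions are those of GENCODE M21, known with GC content for 99.91% of tested genes, and promoter windows are those of RefSeq.

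The members, gene lists and tests were chosen with earlier results of these data known. Named genes are the members, their direct partners, and up to 4 genes per list past the threshold with the largest change at a mean log2 CPM of at least 3. Some genes that this rule or the lists hold are not reported here. The germinal centre genes, the receptors and ligands, inhibitors and caspases named as having no count, *Chek1*, *Chek2* and the sex-linked genes fall outside this rule, and their values had been seen when they were picked. The alternatives comprised other scalings, the Wald test of DESeq2 1.42.0, voom of limma 3.58.1, other filters and thresholds, each library left out, the replicate number as a block, and a loess trend (span 0.5) with exon length and GC content removed.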

Additional observations from a re-analysis of the deposited data

How the results depend on the processing

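The 6 members past the threshold kept their direction and call under each alternative in which they were tested. *Fas* and *Fadd* drop out where 1 CPM is required in all 4 libraries, which leaves 5 members, 4 of them past the threshold. With each library left out in turn, the *Casp8* log2 fold change was 0.16 to 0.26, past the threshold only without replicate 2 of NSD1B KO, and the untested log2 ratio of *Cdkn1a* was -1.71 to 0.06. Requiring 1 CPM in all 4 libraries, a filter that removes genes at 0 in a genotype, left 5846 genes past the threshold of 8334, 12 of the p53 target genes and 0 death receptors and ligands. An adjusted p below 1e-05 with an absolute log2 fold change above 0.5 left 7 genes of the death-inducing complex and necroptosis. Of 144 values of gene counts past the threshold, 140 stayed within 1.5 times the value reported. By DESeq2 8394 genes and the same number of members, 6, were past the threshold. Replicates 1 and 2 share only a number (the correlation of their differences between genotypes was 0.0736), and with the replicate block 8960 genes and 6 members were past it, with no member's call changed. Genes with few counts set the limit of depth here, and *Casp9* could not be compared under any setting. *Cdkn1a* was tested only with the filter of 1 count in any library (log2 fold change -0.71, adjusted p = 0.633, edgeR).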
